A study of Mus musculus with 12 samples.

Results

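The IL-6 family of cytokines and its SOCS feedback were followed in bulk RNA sequencing of mouse gonadal white adipose tissue (GWAT) as 10 genes out of 55281 annotated genes. The 10 genes were taken by symbol and are the ligands Il6, Lif and Osm, the receptor chains Il6ra, Osmr and Il6st, the signal transducer Stat3, and the inhibitors Socs1, Socs2 and Socs3. Each gene was found once in the count table. The study set WT mice (Hoip fl/fl AdipoQ.Cre-, the Cre-negative littermates) against HoipA-KO mice (Hoip fl/fl AdipoQ.Cre+), in which Cre under the adiponectin promoter removes HOIP from mature adipocytes, while the other cells of the tissue keep the gene. HOIP, encoded by Rnf31, is the catalytic subunit of the linear ubiquitin chain assembly complex. Male mice of both genotypes carried the floxed alleles and received a control diet (CD) with 14% fat or a high-fat diet (HFD) with 60% fat from 6 weeks of age for 16 weeks, and GWAT was taken at 22 to 24 weeks. Each of the 4 groups had 3 libraries, and each library held the pooled RNA of 3 mice.

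IL-6 family cytokines bind a receptor chain of their own and share gp130, the product of Il6st, as the signalling chain. IL-6 uses the IL-6 receptor (Il6ra), oncostatin M (Osm) uses the oncostatin M receptor (Osmr), and leukaemia inhibitory factor (Lif) uses the LIF receptor (Lifr). Receptor-bound JAK kinases phosphorylate STAT3, which enters the nucleus and turns on, among other genes, Socs3. SOCS3 binds gp130 and the kinases and dampens the signal, SOCS1 acts on JAK kinases mainly downstream of interferons, and SOCS2 is best known as a brake on growth hormone signalling through STAT5. In adipose tissue both adipocytes and the stromal and immune cells carry parts of this pathway.

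The counts of a library summed to between 30513500 and 60540260, and 3 counts, taken as the floor, amounted to 0.0533 to 0.0996 CPM, the usual unit in which counts are scaled to the same total in each library. CPM values below are normalised by TMM over all 12 libraries. WT CD replicates correlated with each other at 0.785 to 0.903 across genes (Pearson's r of log2 CPM), against 0.968 to 0.992 in the other groups. Transcripts of neighbouring organs were highest in WT CD replicates 2 and 3 and were also present in some HoipA-KO libraries. Markers of epididymal epithelium summed to 15000 CPM in WT CD replicate 2, 1310 in HoipA-KO HFD replicate 1, 259 in WT CD replicate 3, 189 in HoipA-KO HFD replicate 3, 88.6 in HoipA-KO CD replicate 3 and at most 14.8 CPM in the other 7 libraries. Sperm markers summed to 8150 CPM in WT CD replicate 3, 404 in replicate 2 and 17.5 in replicate 1, and to at most 3.34 CPM elsewhere. Replicate 3 is absent from the study's own deposited comparisons, so the tests rest on 11 libraries, and values with all 12 or with other pairs of WT CD libraries are given beside the counts of the 10 genes and, where they end or turn a call, beside the lists. Rnf31 itself lay on CD at 18.2 ± 4.74 CPM in WT and 19.2 ± 2.28 in HoipA-KO, and on HFD at 18.9 ± 0.979 and 20.5 ± 1.89 (SD, n = 3). Whole tissue therefore did not show the adipocyte deletion, and the genotypes are taken from the labels.

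Among the 8 of 10 genes with an entry in the RefSeq promoter table (GRCm38.p6), matches to the motifs searched were found in 3. The search covered the 250 bases before the start given by that entry. The regions of Socs3 and Il6 are shown because these are the feedback gene and the ligand whose values follow. The GENCODE vM21 gene model of Socs3, on the minus strand, reaches 117970047, so the Socs3 region lies inside that model, downstream of its start. The region of Osmr, which held no match, also lies inside its gene model. In the Socs3 region, chr11:117969367-117969616 on the minus strand, the capitals mark TTCTTAGAA. It is a match to the STAT motif TTCNNNGAA that ends 145 bases before the RefSeq start.
Socs3: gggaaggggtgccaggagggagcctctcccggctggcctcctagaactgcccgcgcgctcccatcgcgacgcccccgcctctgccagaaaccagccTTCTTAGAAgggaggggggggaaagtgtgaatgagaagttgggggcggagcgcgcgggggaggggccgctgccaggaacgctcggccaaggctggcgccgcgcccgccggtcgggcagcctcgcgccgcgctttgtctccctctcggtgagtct
In the Il6 region, chr5:30012864-30013113 on the plus strand, the capitals mark TGAGTCA, a match to the AP-1 motif TGANTCA, and further on a match to the kappa B motif (GGGA, any base, TTTCC) that ends 34 bases before the start.
Il6: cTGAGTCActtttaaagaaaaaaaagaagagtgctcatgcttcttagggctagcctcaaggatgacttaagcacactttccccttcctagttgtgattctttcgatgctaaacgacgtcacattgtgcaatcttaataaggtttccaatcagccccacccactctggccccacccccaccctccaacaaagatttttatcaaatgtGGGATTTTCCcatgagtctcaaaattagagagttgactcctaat
The STAT motif TTCNNNGAA was in 7.02% of 32851 promoters of the same length, TGANTCA in 6.75% and the kappa B motif in 0.356%, both strands counted. The only other match was a TGACTCA in the Lif region, and a second STAT spacing with 4 bases between TTC and GAA, held by 5.85% of promoters, matched none of the 8. These are matches of letters and not measured binding sites, and no match says only that these letters are not in the window.

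Per kilobase of merged exons, the signalling chain and the transducer were by far the most abundant of the 10 genes and the ligands the least. In WT CD the mean level was 17.3 ± 6.44 CPM per kb for Il6st and 9.32 ± 2.77 for Stat3 (SD, n = 3 here and in the next sentences). Osmr at 2.87 ± 1.13, Il6ra at 2.78 ± 1.46 and Socs3 at 2.28 ± 0.51 CPM per kb followed and did not differ beyond their spread. Below them lay Socs2 at 0.872 ± 0.132, Socs1 at 0.619 ± 0.167, Lif at 0.349 ± 0.0391, Osm at 0.119 ± 0.0688 and Il6 at 0.0212 ± 0.0141 CPM per kb. In HoipA-KO CD the order changed in the middle and at the bottom. Il6st (24.7 ± 2.45 CPM per kb) and Stat3 (14.9 ± 1.39) still led, Il6ra (8.08 ± 1.39) and Socs3 (6.51 ± 0.934) stood within their spread of each other, and Osmr (3.65 ± 0.376) came after both. Osm reached 1.01 ± 0.0758 CPM per kb, within the spread of Socs2 (1.31 ± 0.298) and of Socs1 (0.792 ± 0.213), and had passed Lif (0.228 ± 0.102). Il6 stayed last at 0.144 ± 0.0982 CPM per kb and did not differ from Lif beyond their spread.

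**Figure D1:**
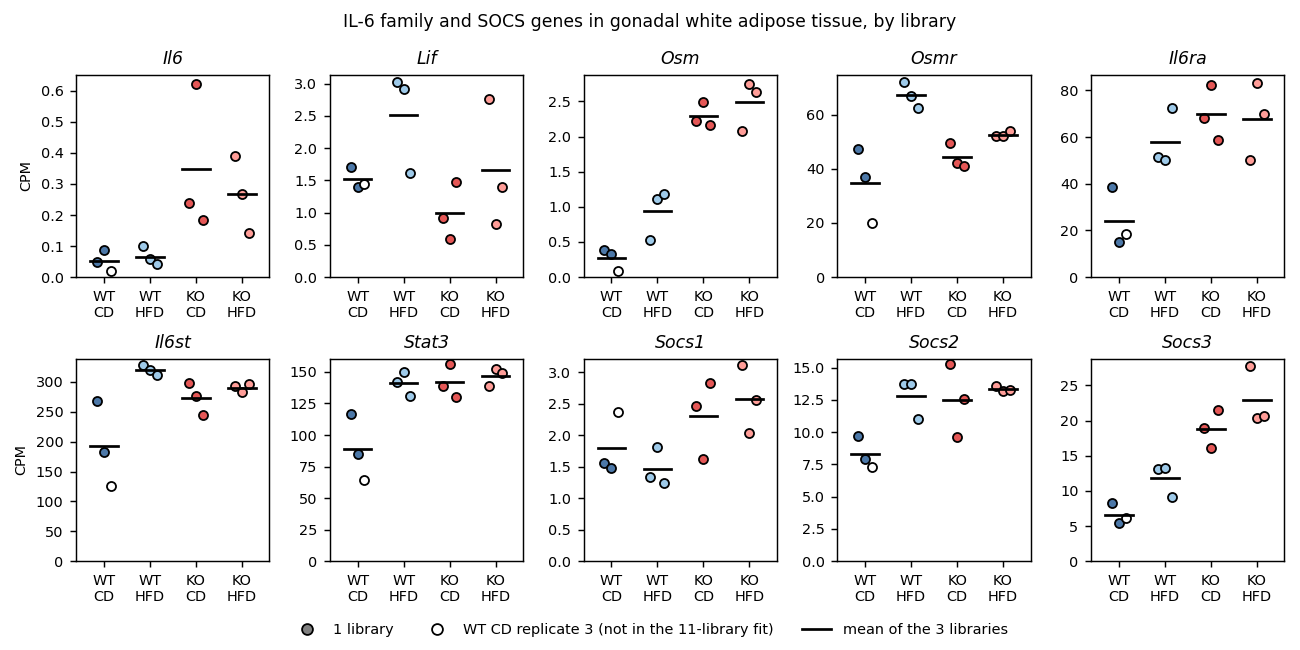
CPM of each of the 10 genes (y axis, linear, from 0) in every library of the 4 groups (x axis); points are libraries, lines are means of 3, and the open point is WT CD replicate 3. Osm and Socs3 of the 6 HoipA-KO libraries lie above all 6 WT libraries, while Lif overlaps between the genotypes on both diets.

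On CD, the ligand Osm, the receptor Il6ra, the transducer Stat3 and the feedback gene Socs3 were higher in HoipA-KO GWAT than in WT. Il6 was also called, which makes 5 of the 10 genes, but it passed the filter on low counts only through the HoipA-KO groups, so its call is no support for a difference and its counts are described below. Lif, Osmr, Il6st, Socs1 and Socs2 did not pass the test. Over all 18427 genes tested, 18.9% were called higher and 18.8% lower in this comparison (edgeR's quasi-likelihood test, Benjamini-Hochberg adjusted p under 0.05). The same 5 genes were called with all 12 libraries, where 15.6% of all genes were higher. On HFD, 2 of the 10 genes, Osm and Socs3, were higher and none lower, beside 4.2% and 7.62% of all genes. With all 12 libraries none of the 10 was called on HFD by edgeR, where 0.531% of all genes were called higher. In bulk tissue, fewer cells of a type and less RNA per cell cannot be told apart.

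Among the ligands, oncostatin M, a cytokine made mainly by macrophages and other leukocytes, had the largest log2 fold change of the 10 genes on CD. Osm was at 0.39, 0.326 and 0.0928 CPM in WT CD replicates 1 to 3 (16, 15 and 5 counts) and at 2.22, 2.49 and 2.17 CPM in HoipA-KO CD. It lay at 0.531, 1.11 and 1.19 CPM in WT HFD and at 2.08, 2.75 and 2.63 CPM in HoipA-KO HFD. All 6 HoipA-KO libraries were above all 6 WT libraries, WT HFD lay between WT CD and HoipA-KO, and the HoipA-KO groups overlapped. The log2 fold change of HoipA-KO against WT was 2.72 ± 0.42 (SE) on CD with an edgeR adjusted p of 0.0012. On CD the difference was called in all 22 alternative settings, with log2 fold changes of 2.58 to 3.48. On HFD it was 1.40 ± 0.33 with an edgeR adjusted p of 0.0301, and 9 of 22 settings lost the call. Leaving out WT HFD replicate 1 gave 1.13 (edgeR adjusted p = 0.0856), WT HFD replicate 2 gave 1.53 (0.0852), HoipA-KO CD replicate 1 gave 1.40 (0.0547), HoipA-KO HFD replicate 2 gave 1.31 (0.0963), and HoipA-KO HFD replicate 3 gave 1.36 (0.0841).

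Il6, the founding cytokine of the family, was near the detection floor in WT tissue. It had 2, 4 and 1 counts in the WT CD libraries and 3, 3 and 2 in WT HFD, against 12, 35 and 9 in HoipA-KO CD and 21, 12 and 8 in HoipA-KO HFD. In CPM the HoipA-KO libraries ranged from 0.142 to 0.622 and the WT libraries from 0.0186 to 0.0996, without overlap. From summed counts the ratio of HoipA-KO to WT was 5.24 on CD over 5 libraries (56 against 6 counts, exact 95% interval 2.26 to 14.9) and 4.29 on HFD over 6 (41 against 8 counts, 1.99 to 10.6). These intervals cover counting error only. The gene entered edgeR's test because of the groups in which it was high, so no fitted fold change or p-value is read for it, and the CD call was lost in 10 of 21 settings.

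Lif, which lies 16530 bases downstream of Osm on the plus strand of chromosome 11, did not follow its neighbour. Lif was at 1.71, 1.39 and 1.45 CPM in WT CD and at 0.922, 0.587 and 1.47 CPM in HoipA-KO CD. On HFD it was at 3.02, 2.92 and 1.61 CPM in WT and 2.77, 0.822 and 1.40 CPM in HoipA-KO. The genotypes overlapped on both diets, and the spread among HoipA-KO HFD libraries was the widest of the 4 groups. The log2 fold change of HoipA-KO against WT was -0.60 (95% interval -1.81 to 0.60, edgeR adjusted p = 0.401) on CD and -0.59 (-1.67 to 0.50, 0.426) on HFD.

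The receptor chains moved unequally. Il6ra, the ligand-binding chain for IL-6, was at 38.5, 15.1 and 18.6 CPM in WT CD and at 68.3, 82.5 and 58.6 CPM in HoipA-KO CD. In WT HFD it was at 51.6, 50.0 and 72.5 CPM and in HoipA-KO HFD at 50.0, 83.4 and 69.8 CPM. The genotypes were apart on CD and overlapped on HFD, and all 3 WT HFD libraries were above all WT CD libraries. The log2 fold change was 1.43 ± 0.40 (SE, edgeR adjusted p = 0.0191) on CD and 0.24 ± 0.34 (0.644) on HFD. On CD the call was lost without WT CD replicate 2 (0.91, edgeR adjusted p = 0.0816), without HoipA-KO CD replicate 2 (1.27, 0.056) and, by a narrow margin, with the replicate number as a block (1.42, 0.0507), while the value rose to 2.25 without WT CD replicate 1. An antisense gene, Gm42809, overlaps Il6ra, and the strand setting of the counting is not given in the sources used here.

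Osmr, the oncostatin M receptor of stromal cells and adipocytes, was at 47.2, 37.0 and 20 CPM in WT CD and at 49.5, 42.1 and 41.2 CPM in HoipA-KO CD. On HFD it lay at 72.2, 66.8 and 62.3 CPM in WT and at 52.0, 52.2 and 53.8 CPM in HoipA-KO. The genotypes overlapped on CD, while on HFD each HoipA-KO library was below each WT library. The HFD difference was a log2 fold change of -0.33 ± 0.13 (SE) with an edgeR adjusted p of 0.11, and DESeq2's Wald test gave an adjusted p of 0.0428. So the ligand Osm was higher in HoipA-KO on both diets, and its receptor was not called in either comparison by edgeR.

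Il6st, the shared signalling chain gp130, was on CD at 268, 183 and 126 CPM in WT against 299, 277 and 245 CPM in HoipA-KO. On HFD it was at 329, 320 and 312 CPM in WT against 293, 283 and 296 CPM in HoipA-KO. The log2 fold change of HoipA-KO against WT was 0.32 (95% interval -0.09 to 0.73, edgeR adjusted p = 0.189) on CD and -0.12 (-0.49 to 0.24, 0.628) on HFD. Leaving out WT CD replicate 1, the WT CD library with the highest Il6st, raised the CD value to 0.62 (edgeR adjusted p = 0.0194). The level of Il6ra per 100 CPM of Il6st was on CD 8.25 to 14.8 in WT against 22.8 to 29.8 in HoipA-KO, and on HFD 15.6 to 23.2 against 17.1 to 29.5, given as a description without a test. The same ratio for Osmr moved less, from 15.2 to 16.9 in HoipA-KO CD to 19.9 to 22.0 in WT HFD.

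Stat3, the transducer, was at 117, 84.7 and 64.6 CPM in WT CD and at 139, 156 and 130 CPM in HoipA-KO CD. On HFD the genotypes overlapped, with 142, 150 and 131 CPM in WT and 139, 152 and 149 CPM in HoipA-KO. The log2 fold change was 0.54 ± 0.17 (SE, edgeR adjusted p = 0.0345) on CD and 0.08 (95% interval -0.27 to 0.42, 0.757) on HFD. The CD call was lost in 11 of 22 settings, and without WT CD replicate 2 the value was 0.33 (edgeR adjusted p = 0.195). It was also lost without HoipA-KO CD replicate 2 (0.44, 0.0935) or 1 (0.56, 0.0684), without WT HFD replicate 2 (0.54, 0.0537) or 3 (0.45, 0.0563), and without HoipA-KO HFD replicate 1 (0.44, 0.053) or 3 (0.45, edgeR adjusted p = 0.062). The end of Stat3 overlaps Stat5a on the other strand, with the strand setting again not given.

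Socs3 is the feedback inhibitor that STAT3 induces, and its region before the RefSeq start, with a STAT motif, is printed above. Its level was 8.24, 5.38 and 6.18 CPM in WT CD and 18.9, 16.1 and 21.5 CPM in HoipA-KO CD. On HFD it was at 13.1, 13.2 and 9.17 CPM in WT and at 27.7, 20.3 and 20.7 CPM in HoipA-KO. Every HoipA-KO library was above every WT library on either diet. The log2 fold change was 1.51 ± 0.25 (SE, edgeR adjusted p = 0.00192) on CD, a 2.84-fold difference, and it was called in all 22 alternative settings with values of 1.24 to 1.84. On HFD it was 0.97 ± 0.22 (SE, edgeR adjusted p = 0.0255), a 1.95-fold difference, and the call was lost in 6 of 22 settings. Those included leaving out WT HFD replicate 1 (1.05, edgeR adjusted p = 0.0749) or 2 (1.05, 0.0737) and HoipA-KO HFD replicate 2 (1.04, 0.0654) or 3 (1.03, 0.0521).

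Socs1 and Socs2 differed less. Socs1, the inhibitor best known from interferon signalling, was on CD at 1.56, 1.48 and 2.36 CPM in WT against 2.46, 1.62 and 2.83 CPM in HoipA-KO. Its HFD values were 1.33, 1.81 and 1.24 CPM in WT against 3.12, 2.04 and 2.56 CPM in HoipA-KO. On HFD the 3 HoipA-KO libraries were above the 3 WT libraries with a log2 fold change of 0.83 ± 0.29 (SE, edgeR adjusted p = 0.0885), and on CD it was 0.64 ± 0.33 (0.153). Socs2, the inhibitor tied to growth hormone, was on CD at 9.70, 7.95 and 7.27 CPM in WT against 15.3, 9.62 and 12.6 CPM in HoipA-KO. Its HFD values were 13.7, 13.7 and 11 CPM in WT against 13.6, 13.2 and 13.3 CPM in HoipA-KO. The genotypes overlapped on both diets. Its log2 fold change was 0.54 ± 0.20 (SE, edgeR adjusted p = 0.0608) on CD and 0.08 ± 0.18 (0.768) on HFD. Without HoipA-KO CD replicate 2, the HoipA-KO CD library with the lowest Socs2, the CD value was 0.68 (edgeR adjusted p = 0.0289).

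As a share of the summed CPM of the 3 SOCS genes, Socs3 made up 36.4% to 42.2% in WT and 51.4% to 58.9% in HoipA-KO on CD, and 42.9% to 46.6% against 56.7% to 62.3% on HFD. By CPM, which is not scaled to transcript length, Socs2 was the largest share in all 6 WT libraries and Socs3 in all 6 HoipA-KO libraries. Per kilobase of merged exons the mean of Socs3 was above that of Socs2 in every group. In WT it was 2.28 against 0.872 CPM per kb on CD and 4.09 against 1.34 on HFD. Per 100 CPM of Stat3, Socs3 came to 6.35 to 9.57 in WT and 10.3 to 16.6 in HoipA-KO on CD, and to 6.99 to 9.19 against 13.3 to 19.9 on HFD. These shares and ratios of library values are descriptions, without a test.

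**Figure D2:**
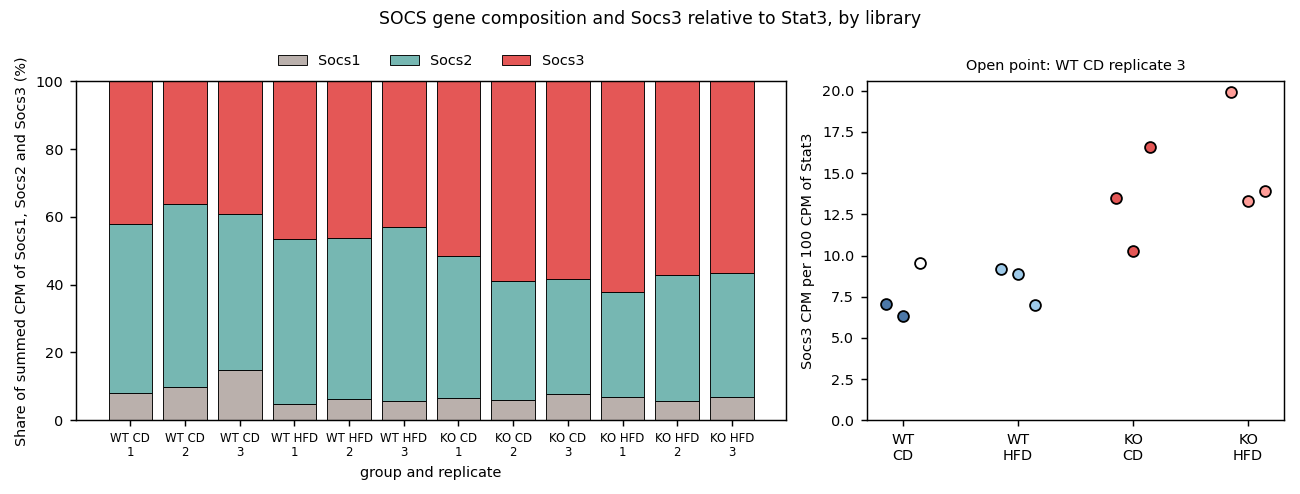
Left, share of Socs1, Socs2 and Socs3 in their summed CPM (y axis, percent) for each of the 12 libraries (x axis); right, Socs3 CPM per 100 CPM of Stat3 by group, 1 point per library, the open point being WT CD replicate 3. The Socs3 share is above 51% in the 6 HoipA-KO libraries and below 47% in the 6 WT libraries, and the ratio to Stat3 is at most 9.57 in WT and at least 10.3 in HoipA-KO.

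In WT mice HFD was accompanied by higher Osm and Osmr. Of the 10 genes, 2 were called higher and none lower on HFD against CD in WT, beside 9.35% and 5.47% of all genes, and 5 with all 12 libraries (Osm, Osmr, Il6ra, Stat3 and Socs3, beside 9.05% of all genes called higher). Osm had a log2 fold change of 1.42 ± 0.40 (SE, edgeR adjusted p = 0.0411) and Osmr of 0.69 ± 0.14 (0.0157). The Osm call was lost in 14 of 22 settings, among them the omission of any single library except WT HFD replicate 1, where edgeR adjusted p-values ran from 0.0513 without WT CD replicate 1 to 0.172 without WT CD replicate 2. The Osmr call was lost without WT CD replicate 2 (0.52, edgeR adjusted p = 0.09). Il6ra (log2 fold change 1.13), Il6st (0.52), Stat3 (0.50), Socs2 (0.55) and Socs3 (0.81) were not called, with edgeR adjusted p-values of 0.0546 to 0.0984. Leaving out each library in turn gave 0.61 to 1.98 for Il6ra, 0.27 to 0.84 for Il6st and 0.29 to 0.76 for Stat3. It gave 0.41 to 0.71 for Socs2 and 0.53 to 1.16 for Socs3. Fits without WT CD replicate 1 or 2 have 1 WT CD library, so no count of calls is read from them. Il6 had 1 to 4 counts in every WT library, so its fitted value in this comparison is not read as a difference.

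In HoipA-KO mice no difference between the diets was called. The log2 fold changes of HFD against CD ran from -0.43 for Il6 to 0.73 for Lif, and edgeR called 0 of the 10 genes, with none at an unadjusted p under 0.05. Of all 18427 genes, 0% were called in either direction, with 415 at an unadjusted p under 0.05, while DESeq2's Wald test called 7 genes, none of them among the 10. The 95% intervals were narrow for Stat3 (-0.30 to 0.38), Il6st (-0.29 to 0.44) and Osmr (-0.05 to 0.52) and wide for Il6 (-1.78 to 0.92) and Lif (-0.36 to 1.82). Same-numbered HoipA-KO libraries deviated together, and with the replicate number as a block within the HoipA-KO groups 0 of the 10 and no other gene were called. At an unadjusted p under 0.05 that fit had 1300 genes, 1 of them among the 10, against 443 and 0 for the same 6 libraries without the block, and DESeq2 had 470, also with 1 of the 10.

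Whether the diet response differed between genotypes was tested as an interaction. None of the 10 genes passed edgeR's test, beside 0.331% of all genes called with a positive and 3.58% with a negative interaction. Osm (-1.32, unadjusted p = 0.0269 by edgeR's quasi-likelihood test), Osmr (-0.45, 0.0414) and Il6ra (-1.19, 0.0436) were under 0.05 before adjustment. DESeq2 also called none of the 10 after adjustment, while it called 2374 of all 18427 genes for the interaction. Without WT CD replicate 1 the fit has 1 WT CD library, so only its values are given. The interactions of Il6ra (-2.02), Il6st (-0.75), Stat3 (-0.72) and Osmr (-0.64) were then further below 0 than over the 11 libraries.

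**Figure D3:**
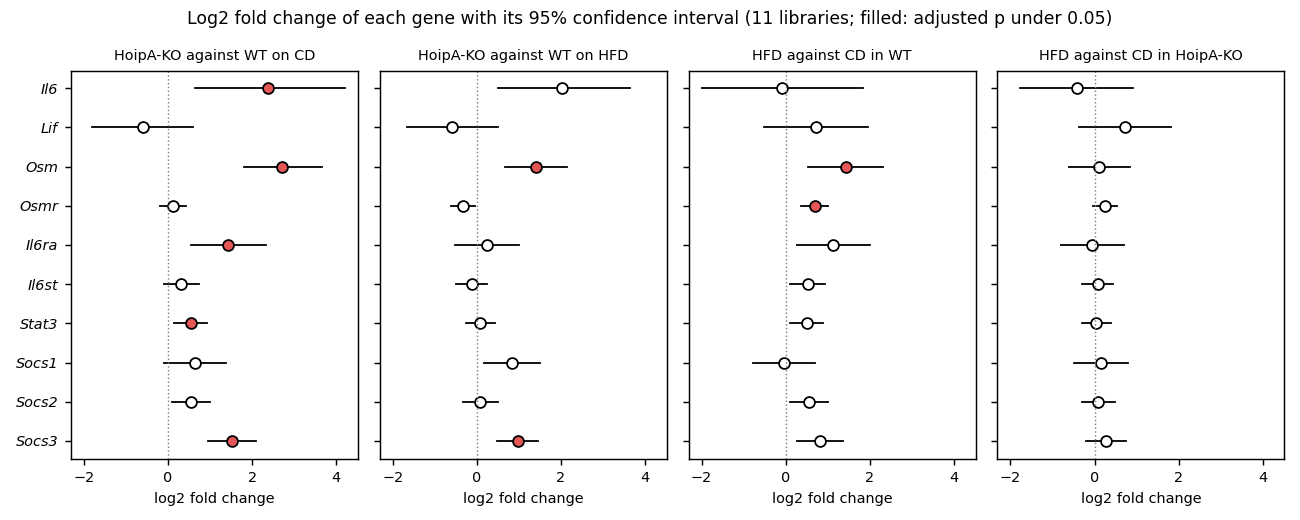
Log2 fold change (x axis) of each gene (y axis) in 4 comparisons over 11 libraries, with bars for the 95% confidence interval and filled points where the edgeR adjusted p was under 0.05. On CD 5 genes are filled to the right of 0, on HFD Osm and Socs3, in WT mice Osm and Osmr, and in HoipA-KO mice none.

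How firm the CD comparison is depends on the WT CD libraries used. The count of genes called was 5 with replicates 1 and 2, where 18.9% of all genes tested were called higher. It was 5 with all 3, where 15.6% of all genes were higher. It was 4 with replicates 1 and 3 and 8 with replicates 2 and 3, where the share of all genes is not given. The counts are therefore not read as particular to the genes studied here. With replicate 1 or 2 alone the WT CD group has 1 library, so only values are given. Replicate 1 alone gave log2 fold changes of 0.91 for Il6ra and 0.33 for Stat3, and replicate 2 alone gave 0.62 for Il6st. The pairs with replicate 3 were added after the data had been seen. The 5 with all 3 replicates were those called with replicates 1 and 2, the pair without replicate 2 lost Stat3 (edgeR adjusted p = 0.0547), and the pair without replicate 1 gained Osmr, Il6st and Socs2.

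The rest of the pathway was read from 9 lists of genes. In the same tests 18.9% of all genes were higher and 18.8% lower on CD, and 4.2% and 7.62% on HFD. On HFD 7 of the 9 lists had a called gene over 11 libraries, whereas with all 12 libraries 3 lists had 1 called gene each. Of the other IL-6 family cytokines, 6 of 8 passed the filter on low counts, and on CD 2 were higher and 1 lower in HoipA-KO. Ebi3, a subunit of IL-27 and IL-35, had a log2 fold change of 2.78 ± 0.38 (SE, edgeR adjusted p = 0.000834) on CD and 1.23 ± 0.31 (0.036) on HFD. Clcf1, a gp130 ligand that signals through the CNTF receptor, had 2.07 ± 0.27 (edgeR adjusted p = 0.000637) and 0.99 ± 0.22 (0.0261). Ctf1, which encodes cardiotrophin-1, was lower on CD (-1.99 ± 0.43, edgeR adjusted p = 0.00627). On HFD the calls of Ebi3 and Clcf1 were lost in 10 and 7 of 22 settings, with edgeR adjusted p-values up to 0.127 and 0.104.

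Among 5 further receptor chains, 2 were higher and 1 lower on CD. Il11ra1, the interleukin-11 receptor, had a log2 fold change of 1.18 ± 0.24 (SE, edgeR adjusted p = 0.00484) on CD and 0.78 ± 0.21 (0.0408) on HFD, and Il27ra, the interleukin-27 receptor, 2.13 ± 0.33 (0.0013) on CD. The HFD call of Il11ra1 was lost in 7 of 22 settings. Lifr, the partner of gp130 for Lif, was at 70.4, 54.8 and 48.5 CPM in WT CD and 50.2, 33.7 and 35.3 CPM in HoipA-KO CD. It was at 99.9, 75.0 and 80.6 CPM in WT HFD and 48.3, 47.9 and 47.5 CPM in HoipA-KO HFD. Its log2 fold change was -0.61 ± 0.20 (SE, edgeR adjusted p = 0.0339) on CD, lost in 7 of 22 settings, and -0.81 ± 0.18 (0.0242) on HFD, lost in 6.

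Of the 4 JAK kinases, 2 were higher on CD and none on HFD. Jak1, the kinase on which gp130 mainly relies, had 0.67 ± 0.22 (log2, SE, edgeR adjusted p = 0.041) on CD, a call lost in 11 of 22 settings, and Tyk2 1.08 ± 0.20 (0.00324). Jak2 did not pass on either diet (-0.48 ± 0.20, edgeR adjusted p = 0.079, and -0.12 ± 0.18, 0.671). Of the 6 other STAT genes, Stat6, the transducer of interleukin-4, was higher on CD (0.96 ± 0.24, edgeR adjusted p = 0.0137), a call lost without WT CD replicate 2 (0.63, edgeR adjusted p = 0.0724). Stat5a was lower over the 11 libraries (-0.88 ± 0.10, edgeR adjusted p = 0.000515). WT CD replicate 3 had 20.2 CPM of Stat5a, below the 30.0 to 30.9 CPM of HoipA-KO CD, and the call was lost in the 3 settings that include that library, with values down to -0.28 (edgeR adjusted p = 0.511).

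Among 13 other brakes on cytokine signalling 4 were higher and none lower on CD, beside 18.9% and 18.8% of all genes, and 1 was lower on HFD. With all 12 libraries 3 were higher and 2 lower on CD and none was called on HFD by edgeR. The lower calls were made only with WT CD replicate 3, the library with the most sperm markers, included. Some of the 13 were far higher there, as Pias2 at 314 CPM against 27.5 and 31.5 in WT CD replicates 1 and 2. Socs7 was at 155 CPM there against 19.2 and 22.7. Ptpn1 (PTP1B) had a log2 fold change of 1.77 ± 0.28 (SE, edgeR adjusted p = 0.00139) and Ptpn6 (SHP-1), a phosphatase of blood cells, 2.56 ± 0.59 (0.00888). Ptpn6 was at 7.94, 35.1 and 7.05 CPM in WT CD, and leaving out WT CD replicate 1 gave 1.84, whereas leaving out replicate 2 gave 3.99. Of 8 tested of 9 other ligands and receptors that use STAT3, 5 were higher on CD, including both chains of the interleukin-10 receptor, Il10ra (3.03 ± 0.37, edgeR adjusted p = 0.000565) and Il10rb (2.01 ± 0.32, 0.00155). Of 4 genes for shedding of cytokine receptors, Adam10 (1.03 ± 0.34, edgeR adjusted p = 0.0371, lost in 10 of 22 settings) and Adam17 (1.87 ± 0.34, 0.00299) were higher on CD. The list around growth hormone and STAT5, 8 genes that include Stat5a and share Cish with other lists, had 1 higher and 3 lower on CD. The growth hormone receptor Ghr was the most abundant of them, with -1.80 ± 0.35 (edgeR adjusted p = 0.00406) on CD, -1.12 without WT CD replicate 1, and -1.96 ± 0.33 (0.012) on HFD, a call lost without HoipA-KO HFD replicate 2 (-1.76, edgeR adjusted p = 0.0504). Its target Igf1 had 0.74 ± 0.24 (0.0327) on CD, lost in 9 of 22 settings.

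Of 20 genes known as STAT3 targets, 11 were higher and none lower on CD, beside 18.9% and 18.8% of all genes tested. On HFD 5 were higher and none lower, beside 4.2% and 7.62%. Their median log2 fold changes were 1.15 and 0.52 against -0.06 and 0.06 over all genes tested. Over the 22 alternative settings the number of targets called was 9 to 12 for the CD comparison and 0 to 10 for the HFD comparison. On HFD it was 0 without WT HFD replicate 1 and 1 with all 12 libraries, where 0.531% of all genes were called higher. Mcl1, a survival factor, was at 200, 125 and 114 CPM in WT CD and 402, 447 and 366 CPM in HoipA-KO CD (log2 fold change 1.36 ± 0.24, edgeR adjusted p = 0.00256). Fos, an AP-1 subunit, was at 34.3, 15.4 and 27.9 CPM in WT CD and 183, 169 and 133 CPM in HoipA-KO CD (2.75 ± 0.38, edgeR adjusted p = 0.00087, and 3.43 without WT CD replicate 1). Both are induced by many signals other than STAT3.

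**Figure D4:**
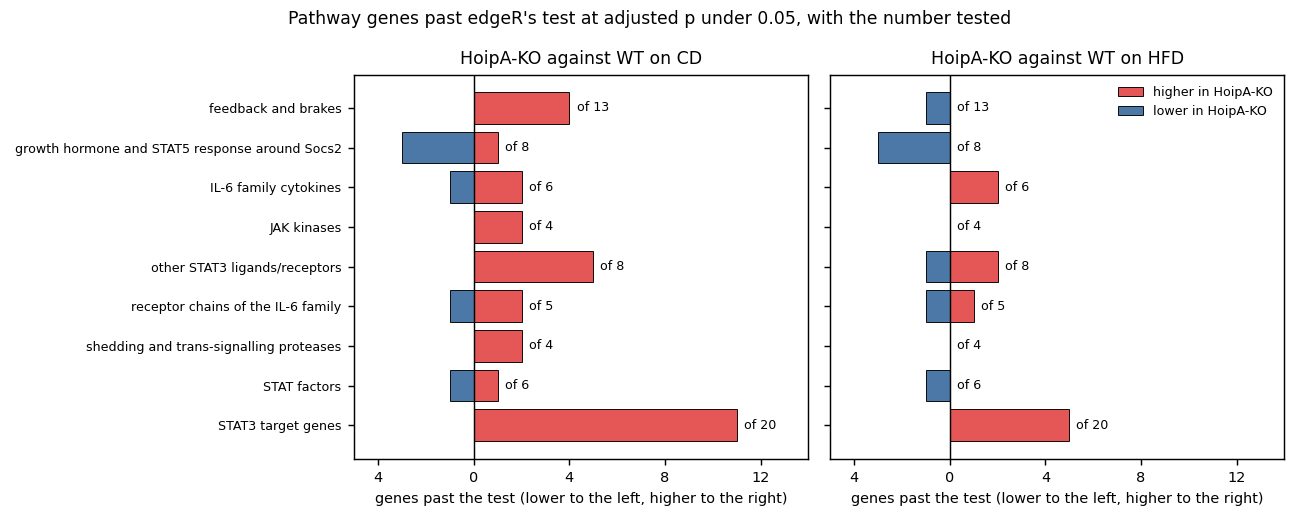
Number of genes of each of 9 pathway lists (y axis) that were higher (to the right) or lower (to the left) in HoipA-KO than in WT at an edgeR adjusted p under 0.05 (x axis), on CD and on HFD, with the number tested beside each bar. The STAT3 target genes, the longest list, have the most calls by number, 11 of 20 on CD and 5 of 20 on HFD. The other STAT3 ligands and receptors have 5 of 8 higher on CD, and 2 higher and 1 lower of 8 on HFD.

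Cell type markers moved with the genotype. Over all genes tested, 18.9% were higher and 18.8% lower on CD, and 4.2% and 7.62% on HFD. On CD 8 of 9 macrophage markers were higher in HoipA-KO and 9 of 10 adipocyte markers lower, and on HFD 4 of 9 and 10 of 10. With all 12 libraries the HFD counts were 0 of 9 and 8 of 10, and those on CD were 8 of 9 and 9 of 10. The mean log2(CPM + 1) of the macrophage markers was 5.09 to 5.63 in WT and 8.84 to 9.05 in HoipA-KO on CD, and 7.00 to 8.48 against 8.74 to 9.23 on HFD. For adipocyte markers it was 10.06 to 11.70 against 8.15 to 8.99 on CD, and 10.38 to 10.96 against 7.83 to 8.64 on HFD. Markers of lipid-associated macrophages were higher in 8 of 8 on CD and 3 of 8 on HFD (0 of 8 with all 12 libraries), and those of stromal progenitors in 4 of 7 and 0 of 7. Of 5 mast cell markers, 4 were higher on CD and 1 on HFD (0 with all 12 libraries), among them the proteases Cpa3 (log2 fold change 7.14 ± 1.5, SE, edgeR adjusted p = 0.00557 on CD), Mcpt4 (7.11 ± 1.3, 0.00242) and Cma1 (6.66 ± 1.1, 0.00154). The mast cell markers summed to 19.1 to 28.2 CPM in WT and 356 to 450 in HoipA-KO on CD, and to 24.3 to 163 against 220 to 569 CPM on HFD. Of 6 endothelial markers, 2 were lower on CD and 3 on HFD (1 and 0 with all 12 libraries). Between the diets in WT, 8 of 9 macrophage and 4 of 5 mast cell markers were higher on HFD. No macrophage or adipocyte marker was at 0 in any library. Neutrophil markers summed to 2.75 to 5.60 CPM in WT and 5.42 to 17.8 CPM in HoipA-KO on CD, and to 8.93 to 21.6 against 4.68 to 80.4 CPM on HFD, with 1 or 2 of 6 at 0 in each of 9 libraries. Both the macrophage level and Osm were lowest in the 3 WT CD libraries, next in WT HFD and highest in HoipA-KO. The part of cell composition in the differences of the 10 genes was not tested.

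**Figure D5:**
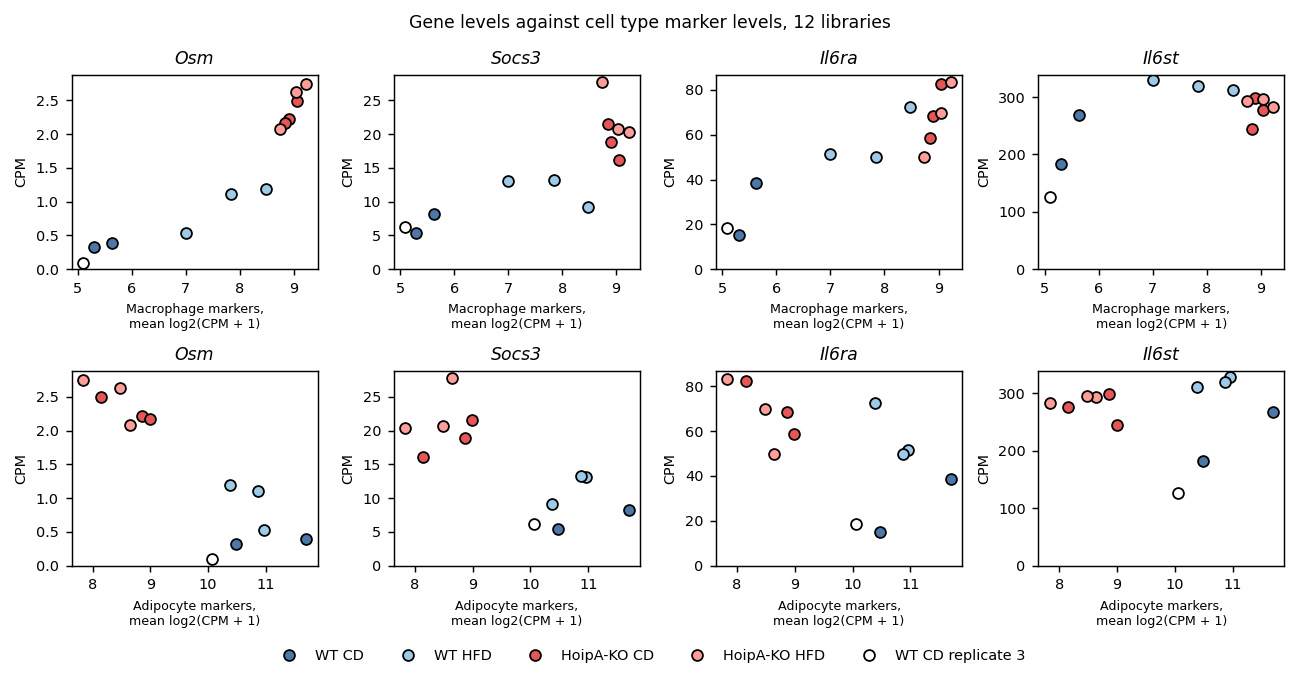
CPM of Osm, Socs3, Il6ra and Il6st (y axes, from 0) against the mean log2(CPM + 1) of macrophage markers (top) and adipocyte markers (bottom) in the 12 libraries, coloured by group, with the open point for WT CD replicate 3. The 6 HoipA-KO libraries sit at macrophage levels of 8.74 to 9.23 and adipocyte levels of 7.83 to 8.99, apart from the WT libraries in both.

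The genes whose levels ran most like each of the 10 over the 12 libraries were found by the mean absolute difference of log2(CPM + 0.5), each gene centred on its own mean, among about 12020 genes of at least 5 CPM. Osm was closest to Fcgr2b and Ap2m1 (0.11 each) and Cfl1 (0.12), and its own mean deviation was 0.74. In the WT CD libraries Osm lay at 0.0928 to 0.39 CPM, below the pseudocount of 0.5. That compresses its differences more than those of abundant genes, so its nearest genes can have smaller changes than Osm. Il6ra was closest to Pid1 (0.10), Vsir (0.11) and Zmiz1 (0.13), with a mean deviation of 0.57. Osmr was closest to Fam114a1 (0.11), then to Il6st (0.13) and Smad3 (0.14). Socs3 was closest to Mmp23 (0.14), Nfatc4 (0.15) and AU020206 (0.18), with a mean deviation of 0.60. The nearest genes were Ifnar2 for Il6st (0.08), Pofut1 for Stat3 (0.06), 2310022B05Rik for Socs2 (0.10), Zfp949 for Socs1 (0.14) and Rbpms for Lif (0.16). For Il6 (Cog3, 0.11) the pseudocount exceeded nearly all of its values.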

How the data were processed

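RNA of 12 GWAT libraries (4 groups of 3, RNA of 3 mice pooled in each, poly-A selected and stranded) was sequenced. The submitters' processing notes name Trim Galore 0.6.7, STAR 2.7.10a, Salmon 1.5.2 and the mouse build GRCm38, whereas the methods name a human assembly. The authors deposited estimated counts per gene, not normalized, for 55281 annotated genes and for 21646 protein-coding genes. They also deposited DESeq2 results of their own comparisons (fold changes, p-values and CPM), which were not used. No column belonged to no sample of the series.

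After rounding of the estimated counts, low genes were removed with filterByExpr, TMM factors were computed, and 1 model of the 4 groups was fitted over 11 libraries, without WT CD replicate 3. Each contrast took a quasi-likelihood F test of edgeR (edgeR 4.0.16, limma 3.58.1, R 4.3.3), with Benjamini-Hochberg adjustment over all genes at 0.05, with a prior count of 0.125. Library totals of 30513500 to 60540260 set the precision of low genes, and the Il6 intervals are exact binomial ones. The procedure was tested on simulated data. Exon lengths and positions came from GENCODE vM21 and promoters from RefSeq, both on GRCm38. No amino acid sequences were used.

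Named genes were the 10 genes, per pathway list the 2 called genes of highest mean CPM in each direction on CD, Lifr, Jak1, Jak2, Rnf31 and the nearest genes by level, and 1 further gene of this rule is not reported here. Genes named only for an interaction or in the other observations were chosen after their values were seen. The 10 genes, the pathway and marker lists and the tests were chosen with earlier results of these data known. Alternatives were DESeq2's size factors, library size alone, no filter, at least 10 counts in every library, protein-coding genes only, all 12 libraries, a replicate block, only the groups compared, DESeq2's Wald test (DESeq2 1.42.0), each library left out in turn and, added after the data were seen, other pairs of WT CD libraries and a block within the HoipA-KO groups. Replicate numbers were checked for pairing. Same-numbered HoipA-KO libraries of the 2 diets deviated together (r across genes 0.11, 0.48 and 0.26). For the diet comparison in HoipA-KO the number was therefore treated as a possible pairing, and the labels do not name its source. Libraries are pools of separate mice, and each p-value measures the spread between pools.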

Additional observations from a re-analysis of the deposited data

Results flagged for a closer look

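None of the 10 genes had a diet response that differed between the genotypes by edgeR's interaction test over 11 libraries, but 6 genes of the surrounding lists did. They were 3 of 20 STAT3 targets, 2 of 8 other STAT3 ligands and receptors and 1 of 5 receptor chains, with none in the other lists. Over all genes tested, 3.58% were called with a negative and 0.331% with a positive interaction. Each of the 6 is given as the log2 fold change of HFD against CD in HoipA-KO minus that in WT, and a negative value means a smaller rise or none on HFD in HoipA-KO. Il1rn, the interleukin-1 receptor antagonist, had -5.63 ± 0.90 (SE, edgeR adjusted p = 0.0256) and was at 0.512, 1.5 and 0.872 CPM in WT CD, 28.0 to 61.6 CPM in WT HFD and 80.6 to 232 CPM in HoipA-KO on either diet. Timp1, an inhibitor of metalloproteinases, had -3.50 ± 0.52 (edgeR adjusted p = 0.0256), and Junb, an AP-1 subunit, -1.46 ± 0.30 (0.0331). Il10ra had -2.05 ± 0.45 (edgeR adjusted p = 0.0424), Il27ra -1.77 ± 0.41 (0.0479) and Csf3r, the G-CSF receptor, -1.63 ± 0.32 (0.0288). In all 6 the HoipA-KO CD libraries lay above the WT CD libraries by edgeR's test. Over 21 alternative settings none of the 6 changed sign, while the call was lost in 7 for Il1rn and for Timp1, 9 for Csf3r, 10 for Junb and for Il10ra, and 13 for Il27ra. The macrophage marker level rose in the same order of groups, from 5.09 to 5.63 in WT CD to 7.00 to 8.48 in WT HFD and 8.74 to 9.23 in HoipA-KO, and its part in these values was not tested.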

How the results depend on the processing

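On CD, Osm and Socs3 were called higher in HoipA-KO in all 22 settings, and Il6ra in 19 of 22. Of the 10 genes 5 were called on CD, 2 on HFD, 2 between the diets in WT, 0 between the diets in HoipA-KO and 0 for the interaction. Size factors of DESeq2, the 10-count filter and protein-coding genes alone kept these counts within 1.5 times. Library size alone raised the WT diet count to 5. No filter gave 3 on CD, 1 on HFD and 1 for the WT diet. All 12 libraries gave 0 on HFD and 5 for the WT diet. Only the groups compared gave 3 on CD and 0 for the WT diet. DESeq2's Wald test gave 4 on HFD and 6 for the WT diet, and also called Socs2 on CD (0.5, adjusted p = 0.049 by that test). WT CD replicates 2 and 3 gave 8 on CD, 1 on HFD, 7 for the WT diet and 3 for the interaction, and replicates 1 and 3 gave 0 on HFD and 0 for the WT diet. For most of these settings, and for the block below, the share of all genes called is not given. The counts are therefore not read as particular to the 10 genes, and the cause of these shifts was not tested.

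With the replicate number as a block, 3 genes were called on CD and 1 for the WT diet, and Il6 for the WT diet (0.29), the Lif interaction (-0.09) and Adam10 on HFD (-0.05) changed sign. Every same-numbered pair had a positive r only in the HoipA-KO diet comparison (0.11, 0.48 and 0.26). In the other comparisons r was 0.12 and -0.10 (genotypes on CD), 0.38, -0.01 and 0.07 (genotypes on HFD) and -0.06 and -0.03 (diets in WT). The 0.38 lies within the range of the HoipA-KO diet comparison and no cutoff was set, so these values do not settle which numbers are a pairing.

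Leaving out each library in turn, counts ran from 2 to 5 on CD, 0 to 2 on HFD, 0 to 5 for the WT diet and 0 to 4 for the interaction. These ranges include the fits without WT CD replicate 1 or 2, which have 1 WT CD library. The share of all genes called in each fit is not given, so the counts are not read as particular to the genes studied here. The HFD count was 0 when WT HFD replicate 1, WT HFD replicate 2, HoipA-KO HFD replicate 2 or its replicate 3 was left out. Values near 0 changed sign within ranges of log2 fold changes: for the WT diet, Il6 -0.42 to 0.38 and Socs1 -0.23 to 0.01; for the HoipA-KO diet, Il6 -0.77 to 0.32, Il6ra -0.25 to 0.15, Stat3 -0.02 to 0.13, Socs1 -0.04 to 0.33 and Socs2 -0.05 to 0.25. For the interaction, Il6 ranged from -0.81 to 0.40 and Lif from -0.44 to 0.50. On CD, Osmr ranged from -0.05 to 0.29, and on HFD Adam10 from -0.27 to 0.2, Ctf1 from -0.51 to 0.1, Stat6 from -0.1 to 0.16 and Jak1 from -0.19 to 0.01.

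Other settings that turned a sign did so for values that were not called over the 11 libraries. Library size alone gave 0.04 for Il6ra in the HoipA-KO diet comparison and 0.01 for Jak1 on HFD, protein-coding genes -0.02 for Osmr on CD and -0.01 for Adam10 on HFD, and all 12 libraries 0.32 for Il6 in the WT diet. WT CD replicates 2 and 3 gave 0.33 for Il6 in the WT diet and -0.12 for the Lif interaction, and replicates 1 and 3 gave 0.93 for Il6 in the WT diet and 0.13 for Jak2 on CD. With a WT CD arm of 1 library, its spread is assumed to equal that of the other groups. Depth limits Il6, at 1 to 4 counts in the WT libraries, and the sign changes of its fitted values are not read as results.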

Other observations

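In WT mice the surrounding pathway genes also differed between the diets. Of the 20 STAT3 target genes, 7 were higher and none lower on HFD than on CD by edgeR's test, beside 9.35% and 5.47% of all genes, and 10 with all 12 libraries. They included the acute-phase genes Saa3 (log2 fold change 4.51 ± 1.20, SE, edgeR adjusted p = 0.0395) and Lbp (1.57 ± 0.35, 0.02). Ebi3 was higher (1.58 ± 0.37, edgeR adjusted p = 0.0221) and Ctf1 lower (-1.57 ± 0.42, 0.0373, and not called with all 12 libraries, -1.39, edgeR adjusted p = 0.055), the directions these genes had in HoipA-KO against WT on CD, a comparison that shares the WT CD libraries. Of the 5 further receptor chains only Il27ra was called (1.85 ± 0.33, edgeR adjusted p = 0.00842).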
